A study of Mus musculus with 8 samples.

Results

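The genes described here build ribosomes: 55 of the 23846 rows of a deposited expression table, followed across 8 RNA-seq libraries of muscle mesenchymal progenitors. They were taken by a rule that uses names and not values, but the rule was chosen with earlier results of these data known. The rule took every row whose symbol began with Utp, Nop, Rrp or Nol followed by a digit, or with Polr1. It named 17 further genes (Ncl, Npm1, Fbl, Dkc1, Gar1, Nhp2, Bop1, Pes1, Wdr12, Rrs1, Gnl3, Nolc1, Tcof1, Bysl, Ltv1, Nob1 and Mybbp1a). No symbol among the 55 stood on more than 1 row. The rule also took Nol3, which encodes the apoptosis inhibitor ARC, and Nol4, to which no role in ribosome assembly was assigned, so 53 of the 55 were placed in 8 role groups and these 2 were kept apart.

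Mesenchymal progenitors are stromal cells that lie between the fibres of a muscle. All 8 libraries came from C57BL/6J mice of the genotype Hic1CreERT2/CreERT2;Rosa26LSLtdTomato/+, so both copies of the Hic1 locus carried the inducible Cre, the quiescent control included, and tdTomato marked cells that had expressed Hic1 at the time of tamoxifen and the cells descended from them. At 8 weeks of age the mice were given 2.5 mg of tamoxifen in 100 µL of sunflower oil on each of 5 days, followed by 10 days of washout. TdTomato-positive progenitors were then purified from whole hindlimb muscle by flow cytometry, either without injury (quiescent) or 1, 2, 3, 4, 5, 7 or 10 days after notexin, a phospholipase from snake venom to which muscle fibres are sensitive. Each time point was 1 library of polyA RNA, and the labels do not say how many mice stood behind it. No spread between animals can therefore be given for any value below, and no test was made.

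A ribosome begins in the nucleolus, where RNA polymerase I transcribes the precursor of the large ribosomal RNAs. The small subunit processome folds and cuts that precursor, box C/D particles methylate it and box H/ACA particles turn chosen uridines into pseudouridine, each guided by small nucleolar RNAs, while further factors assemble and export the large and small subunits. The genes for these factors are known to move with the growth state of a cell, and many are textbook targets of the transcription factor Myc, which binds the sequence CACGTG.

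The genes stood together 1 day after injury. Of the 51 that reached 5 FPKM (sequenced fragments set against transcript length and library total) in the quiescent or the day 1 library, 48 were higher on day 1, or 94.1%, and none was lower. A gene counted as higher when log2(FPKM + 1) differed by 1 or more, which is 2-fold on that scale, and the higher of the pair of libraries reached 5 FPKM. The same rule called 22.5% of the 8701 rows it could be applied to higher on day 1 and 12.5% lower. Of the 55, 4 stayed under 5 FPKM in both libraries (Nol3, Nol4, Utp14b and Utp23). A further 12 passed the 5 FPKM limit through their day 1 value alone and so could only have been called higher. These were Nol8, Nol9, Nol10, Nop9, Polr1a, Polr1b, Polr1e, Rrp1b, Rrp12, Utp15, Utp20 and Wdr12. Among the 39 at 5 FPKM or more already in the quiescent library, 36 were higher and none was lower, against 18.6% of all such rows higher. Over the 54 genes that reached 1 FPKM in any library, the median difference between day 1 and quiescent was 1.67 on the log2(FPKM + 1) scale, with a range from 0.01 to 3.53. The median over all 12950 such rows was 0.05, and 6.23% of them stood above the genes' median.

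**Figure D1:**
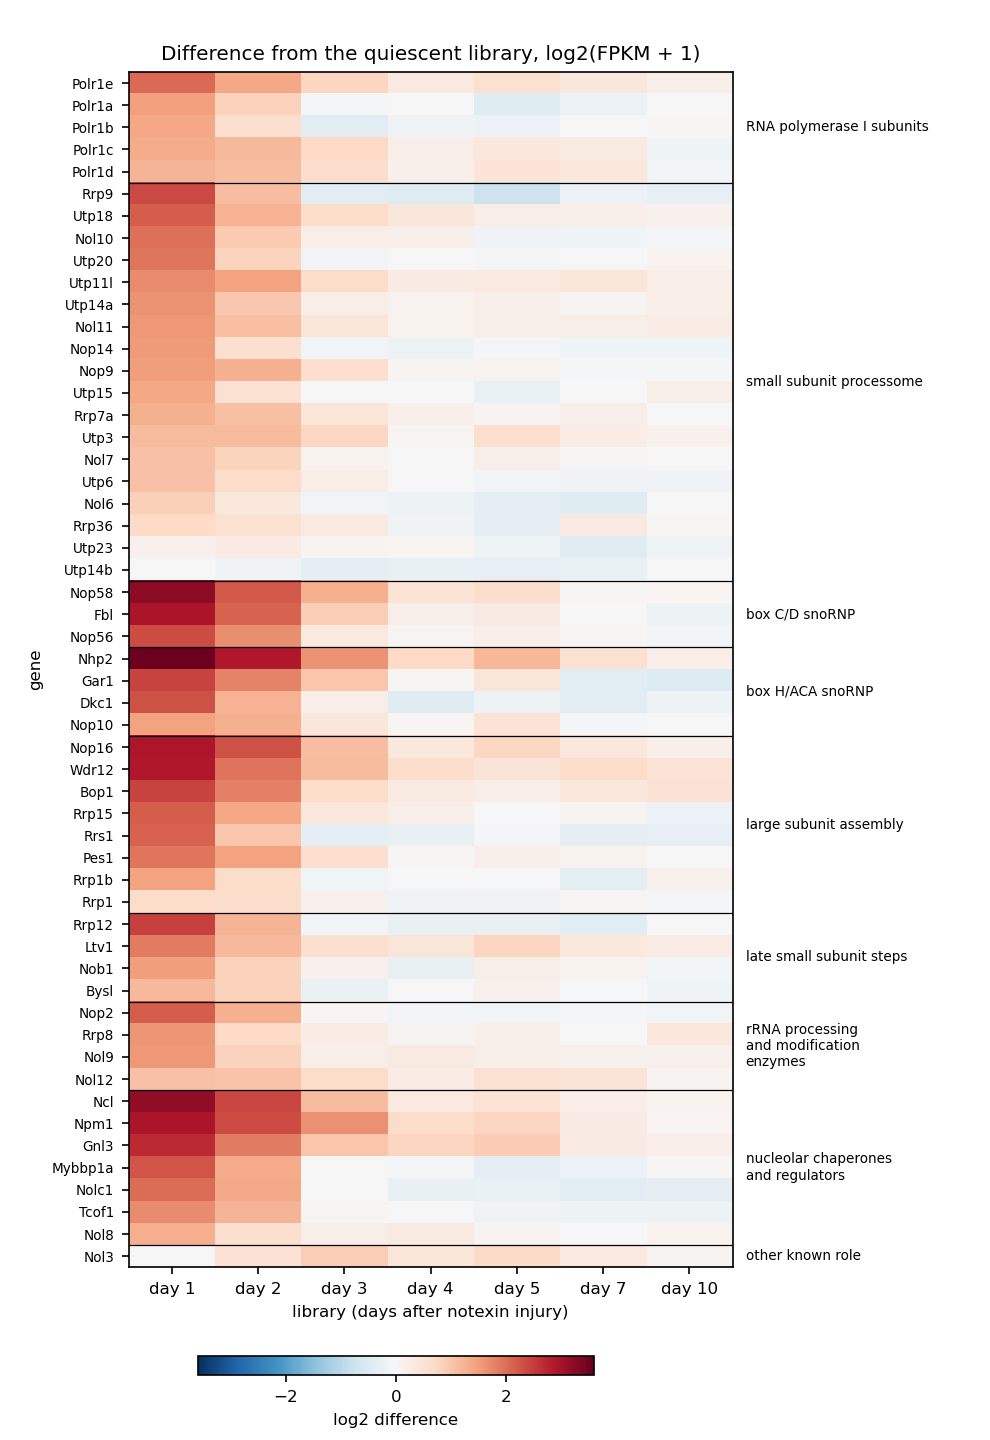
Heat map of the difference from the quiescent library in log2(FPKM + 1) for the 54 genes that reached 1 FPKM in any library; columns are the 7 injured libraries, rows are genes ordered by role group and, within it, by the day 1 difference. The day 1 column is red in all 8 role groups and pale for Utp23, Utp14b and Nol3, whose sign turned under other scalings, with the darkest cells at Nhp2 (3.53), Nop58 (3.22) and Ncl (3.19), and most cells are pale from day 4 on.

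The libraries differed in their scale as well as in these genes. Setting the median ratio of genes at 5 FPKM or more in every library to 1 moved the log2 FPKM relative to quiescent by -0.35 on day 1, -0.37 on day 2 and -0.26 on day 3, and rescaling each library to a common sum of FPKM moved them by -0.54, -0.63 and -0.44. On day 1, 40 of 51 genes were still called higher under the median ratio, against 14.2% of all rows. Under the common sum 34 of 50 were, against 10.6% of all rows. Under either scaling 51 of the 55 had a day 1 difference above 0, the exceptions being Nol3, Utp14b and Utp23, which turned below 0, and Nol4, which sat at the floor of the table. The counting error was small beside most of these differences. Between 10.7 and 28.3 M fragments (M, mega) per library were estimated from the steps of low FPKM values, and the counting error of a day 1 difference was 0.02 to 0.16 on the log2 scale over the 51 genes, largest for Polr1e. Fragments were taken over the longest coding transcript of each gene, so the error is understated where a shorter one prevailed. The error covers counting only, not animals, sorts or library preparation.

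The purity of the sort was read from marker genes. All 10 progenitor markers were detected in every library, and their summed FPKM was 9858 in quiescent, 5749 on day 1, 6630 on day 2 and between 11420 and 16406 from day 3 on. On day 1, 6 of the 10 were called lower than in quiescent and none higher. Their median difference was -1.12 in log2(FPKM + 1), and 2 of the 10 were above 0. Pdgfra was 118 FPKM in quiescent and 153 on day 1, while Hic1 was 52.2 and 20.6. Summed macrophage markers (12 genes, none at the floor) were 29.8 FPKM in quiescent, 148 on day 1, 253 on day 2, 907 on day 3, 145 on day 4, 507 on day 5, 75.2 on day 7 and 78.8 on day 10. The macrophage sum was thus highest on day 3, not on day 1, and 6 of 8 testable macrophage markers were called higher on day 1. Endothelial markers summed to 82.8 in quiescent and 9.98 on day 1, muscle fibre markers to 37.8 and 11.2, and neutrophil markers to 41.9 and 46.2. Satellite cell and myoblast markers summed to 7.78 and 20.9, with Pax7 at the floor of 0.001 on days 1 and 2. Over all 8 libraries the highest sums were 69.7 for satellite cells and myoblasts on day 3, 134 for muscle fibres on day 7 and 80.5 for neutrophils on day 5. The part of these cells in the results below was not tested, and in bulk RNA fewer cells of a type and less RNA per cell cannot be told apart.

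Promoters are shown for a few of the genes because they moved together on day 1 and because CACGTG lies in some of them. RefSeq promoters of build GRCm38.p6, 250 bases before to 50 bases after the annotated start, were matched by symbol for 43 of the 55 genes, with 49 promoters in all. The letters CACGTG, the same on both strands, were in 9 of the 49, or 18.4%, each of a different gene. They were in 7.15% of all 32851 promoters and in 10.2% of the 9087 promoters of genes that reached 5 FPKM in any library. The 9 genes were Mybbp1a, Nop2, Utp18, Utp20, Pes1, Ltv1, Nol11, Rrp7a and Utp14b. The first 4 had the largest day 1 differences of the 9 and are printed here 5′ to 3′ on the strand of the gene, with CACGTG in capitals. Nhp2 and Nop58, printed after them, had the largest day 1 differences of all 55 genes and hold no CACGTG in this window.
Mybbp1a, chr11:72441077-72441376, plus strand, motif at position 41 after the start: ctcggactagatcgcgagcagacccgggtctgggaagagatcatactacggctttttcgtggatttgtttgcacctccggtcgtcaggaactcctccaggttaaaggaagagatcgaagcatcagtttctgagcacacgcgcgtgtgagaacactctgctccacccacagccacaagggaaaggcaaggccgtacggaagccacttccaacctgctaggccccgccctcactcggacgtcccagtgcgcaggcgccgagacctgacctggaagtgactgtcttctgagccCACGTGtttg
Nop2, chr6:125131633-125131932, plus strand, motif 60 bases before the start: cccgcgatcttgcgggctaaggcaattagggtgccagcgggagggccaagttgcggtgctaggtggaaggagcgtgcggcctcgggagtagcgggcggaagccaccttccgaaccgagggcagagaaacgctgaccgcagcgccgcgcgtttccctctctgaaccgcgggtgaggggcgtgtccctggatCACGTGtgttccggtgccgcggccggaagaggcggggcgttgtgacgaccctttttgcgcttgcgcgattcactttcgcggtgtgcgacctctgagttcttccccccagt
Utp18, chr11:93885717-93886016, minus strand, motif 20 bases before the start: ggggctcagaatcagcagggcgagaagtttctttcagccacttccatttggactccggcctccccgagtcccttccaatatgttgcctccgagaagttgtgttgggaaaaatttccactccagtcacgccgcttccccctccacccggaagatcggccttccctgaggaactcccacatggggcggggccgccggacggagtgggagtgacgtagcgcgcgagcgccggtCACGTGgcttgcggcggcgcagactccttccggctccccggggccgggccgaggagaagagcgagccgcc
Utp20, chr10:88826765-88827064, minus strand, motif at position 38 after the start: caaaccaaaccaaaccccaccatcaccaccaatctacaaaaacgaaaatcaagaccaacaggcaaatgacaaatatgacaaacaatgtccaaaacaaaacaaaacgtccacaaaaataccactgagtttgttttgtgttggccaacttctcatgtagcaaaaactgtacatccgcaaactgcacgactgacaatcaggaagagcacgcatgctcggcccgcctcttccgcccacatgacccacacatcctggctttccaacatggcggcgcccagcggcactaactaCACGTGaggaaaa
Nhp2, chr11:51619523-51619822, plus strand: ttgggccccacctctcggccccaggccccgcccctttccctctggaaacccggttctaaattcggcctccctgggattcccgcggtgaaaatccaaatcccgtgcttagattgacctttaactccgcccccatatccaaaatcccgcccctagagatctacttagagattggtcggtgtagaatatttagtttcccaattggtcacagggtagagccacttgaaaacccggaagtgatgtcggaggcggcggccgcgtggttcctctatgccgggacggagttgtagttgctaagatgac
Nop58, chr1:59684756-59685055, plus strand: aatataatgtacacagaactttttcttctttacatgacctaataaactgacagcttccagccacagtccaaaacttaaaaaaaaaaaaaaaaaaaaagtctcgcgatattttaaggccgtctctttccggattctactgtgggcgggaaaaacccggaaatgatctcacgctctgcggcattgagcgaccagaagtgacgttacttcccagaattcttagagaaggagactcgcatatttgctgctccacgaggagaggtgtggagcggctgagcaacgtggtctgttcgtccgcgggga
The 9 genes with the letters had a median day 1 difference of 1.92 (range 0.01 to 2.26) in log2(FPKM + 1), and the 34 matched genes without them a median of 1.54 (range 0.65 to 3.53), so the ranges overlapped. Not matched were Fbl, Tcof1, Nol6, Bop1, Rrs1, Rrp12, Nol4, Npm1, Nol3, Utp23, Utp6 and Utp11l. Myc itself was 78.1 FPKM in quiescent, 128 on day 1, 81.4 on day 2, 47.4 on day 3, 43.3 on day 4, 49.3 on day 5, 23.9 on day 7 and 21.9 on day 10. Its day 1 difference of 0.71 in log2(FPKM + 1) stayed under the 2-fold limit, and was 0.37 under the median ratio and 0.18 under the common sum.

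The RNA polymerase I subunits were all 5 higher on day 1, with a median difference of 1.40 in log2(FPKM + 1) and a range from 1.22 to 2.05. Under the median ratio 3 of them were called (Polr1a, Polr1b and Polr1e) and under the common sum 2 (Polr1a and Polr1e), with Polr1a just short of the limit when rows under 200 bp were left out of that sum. Polr1a, Polr1b and Polr1e were under 5 FPKM in quiescent and passed that limit through day 1 alone. They could therefore only have been called higher. The catalytic pair is Polr1a, the largest subunit (chromosome 6, 71909053 to 71979360 on mm10; loci here span the whole gene, exons and introns), and Polr1b, the next largest (chromosome 2, 129100996 to 129126595). Polr1a was 3.52 FPKM in quiescent, 11.6 on day 1, 6.98 on day 2, 3.29 on day 3, 3.46 on day 4, 2.32 on day 5, 2.91 on day 7 and 3.59 on day 10. Polr1b was 3.79, 11.7, 6.26, 2.61, 3.43, 3.13, 3.74 and 3.94 FPKM in the same order. The pair was within a narrow range of each other in every library, high on day 1, intermediate on day 2 and near or under the quiescent level afterwards. Polr1e, the PAF53 subunit that is specific to polymerase I, had the lowest quiescent level of the 5 at 1.81 FPKM and was 10.6 on day 1, 6.43 on day 2, 3.75 on day 3 and 2.26 to 3.12 from day 4 on. Its day 1 level was 5.87 times the quiescent one, the largest ratio among the subunits.

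The subunits that polymerase I shares with RNA polymerase III followed a flatter course. Polr1c was 21.8 FPKM in quiescent, 56.5 on day 1, 49.9 on day 2, 36.8 on day 3, 25.9 on day 4, 28.5 on day 5, 27.5 on day 7 and 19.7 on day 10. Polr1d was 73.3, 172, 160, 114, 83.4, 104, 95.5 and 68.4 FPKM in the same order. Both stood nearly as high on day 2 as on day 1, and day 1 exceeded day 2 by 1.13 times for Polr1c and 1.07 times for Polr1d, against 1.66 for Polr1a, 1.86 for Polr1b and 1.65 for Polr1e. The longest coding transcripts of Polr1c and Polr1d are 1314 and 1196 bp, against 9216, 3998 and 2986 bp for Polr1a, Polr1b and Polr1e. Over all rows of 200 bp or more, the median day 2 minus day 1 difference was 0.17 for transcripts under 2000 bp and -0.03 for longer ones. The part of length in the flatter course was not tested. The calls of Polr1c and Polr1d on day 1 were lost under the median ratio and the common sum. Polr1d exceeded the lowest subunit 40.6 times in quiescent, 16.2 times on day 1 and 25.6 to 44.9 times in the other injured libraries, a ratio within a library that no rescaling changes.

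The partners of polymerase I from a list of 15 other genes were less uniform. Of the 13 that could be tested, 9 were called higher on day 1 and none lower, with a median difference of 1.20 in log2(FPKM + 1) over the 15. Rrn3, the initiation factor TIF-IA that carries growth signals to the polymerase, was 7.71 FPKM in quiescent, 21.2 on day 1, 15.7 on day 2, 9.04 on day 3 and 7.75 to 8.58 from day 4 on. Cd3eap, the PAF49 partner of Polr1e, was 4.11 in quiescent and 15.7 on day 1, and Twistnb, a stalk subunit, was 3.81 and 10.1. Both passed the 5 FPKM limit through day 1 alone and could only have been called higher. Znrd1, the small zinc ribbon subunit, was 20.5 FPKM in quiescent, 39.0 on day 1, 33.8 on day 2, 40.8 on day 3 and 40.9 on day 5, so it was not highest on day 1 and its day 1 difference of 0.89 fell short of the limit. The shared subunits Polr2f (60.2 FPKM in quiescent, 149 on day 1) and Polr2k (28.5 and 117) were higher. The call of Rrn3 was lost under the common sum (0.85), and those of Twistnb and Polr2f under the median ratio (0.91 and 0.95).

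The factors that act on the ribosomal DNA promoter differed among themselves. Ubtf, which bends and keeps open the ribosomal DNA, was 41.4 FPKM in quiescent, 54.6 on day 1, 46.5 on day 2 and between 34.4 and 39.0 from day 3 on. Its day 1 difference of 0.39 in log2(FPKM + 1) was 0.05 under the median ratio and -0.14 under the common sum, so its direction depended on the scaling. Of the selectivity factor subunits, Taf1d was 10.6 FPKM in quiescent and 48.8 on day 1, a difference of 2.10. Its partners Taf1a (5.41 and 5.32), Taf1b (6.87 and 8.75) and Taf1c (3.58 and 3.76) were not called, nor was the terminator protein Ttf1 (3.48 and 3.12). Taf1c and Ttf1 stayed under 5 FPKM, and under the common sum the differences of Taf1a, Taf1b, Taf1c and Ttf1 were all below 0.

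The genes of the box C/D particle were all 3 higher on day 1, with a median difference of 2.94 in log2(FPKM + 1), the highest of the 8 role groups. Fbl, the 2′-O-methyltransferase fibrillarin (chromosome 7, 28169748 to 28179269), was 39.6 FPKM in quiescent, 311 on day 1, 174 on day 2, 73.3 on day 3, 45.9 on day 4, 49.0 on day 5, 39.4 on day 7 and 34.9 on day 10. Nop58, which with Nop56 forms the scaffold that holds the guide RNA (chromosome 1, 59685006 to 59711510), was 16.0, 157, 77.7, 40.0, 22.7, 25.4, 16.6 and 16.7 FPKM in the same order. Nop56 was 25.4, 134, 83.2, 32.9, 26.5, 30.3, 26.6 and 23.7 FPKM. All 3 were highest on day 1 and lower in each library from there to day 4, and on day 10 each was close to its quiescent level. Nop58 differed most, at 9.86 times quiescent, and passed above Nop56 on days 1 and 3 while lying under it in the other 6 libraries. The ratio of the highest to the lowest of the 3 was 2.48 in quiescent and 2.33 on day 1. Snord110 and Snord57 lie inside Nop56, and Snord11 and Snord70 inside Nop58; whether reads of these small RNAs were counted to the host rows is not given.

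The genes of the box H/ACA particle were all 4 higher on day 1, with a median of 2.36, and Nop10 lost its call under the common sum. Nhp2, a core protein that binds the guide RNA (chromosome 11, 51619773 to 51623714), was 16.5 FPKM in quiescent, 202 on day 1, 128 on day 2, 52.5 on day 3, 28.0 on day 4, 39.3 on day 5, 24.9 on day 7 and 19.8 on day 10. It had the largest difference of the 55 genes on day 1, 3.53 in log2(FPKM + 1) or 12.2-fold, and ranked 52 among the 9509 rows at 5 FPKM or more in any library. It was also the only one of the genes called higher on day 5, a call that was lost under the common sum and with day 10 as the baseline. Dkc1, the pseudouridine synthase dyskerin, was 6.86 FPKM in quiescent, 37.7 on day 1, 17.8 on day 2, 8.27 on day 3 and 4.85 to 5.99 from day 4 on. Gar1 was 15.7, 89.0, 57.1, 32.2, 16.1, 21.6, 11.8 and 10.8 FPKM from quiescent to day 10. Nop10, which encodes a small core protein, was 45.2, 126, 111, 60.1, 47.8, 64.0, 43.3 and 44.6 FPKM.

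The 4 genes of this particle changed order between libraries. Nop10 was the most abundant in quiescent and from day 3 on, and Nhp2 was the most abundant on days 1 and 2. Dkc1 was the least abundant in all 8 libraries. Nop10 or Nhp2 exceeded Dkc1 6.59 times in quiescent, 5.35 times on day 1 and 10.7 times on day 5. These comparisons between genes are of FPKM, which is set per transcript length.

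**Figure D2:**
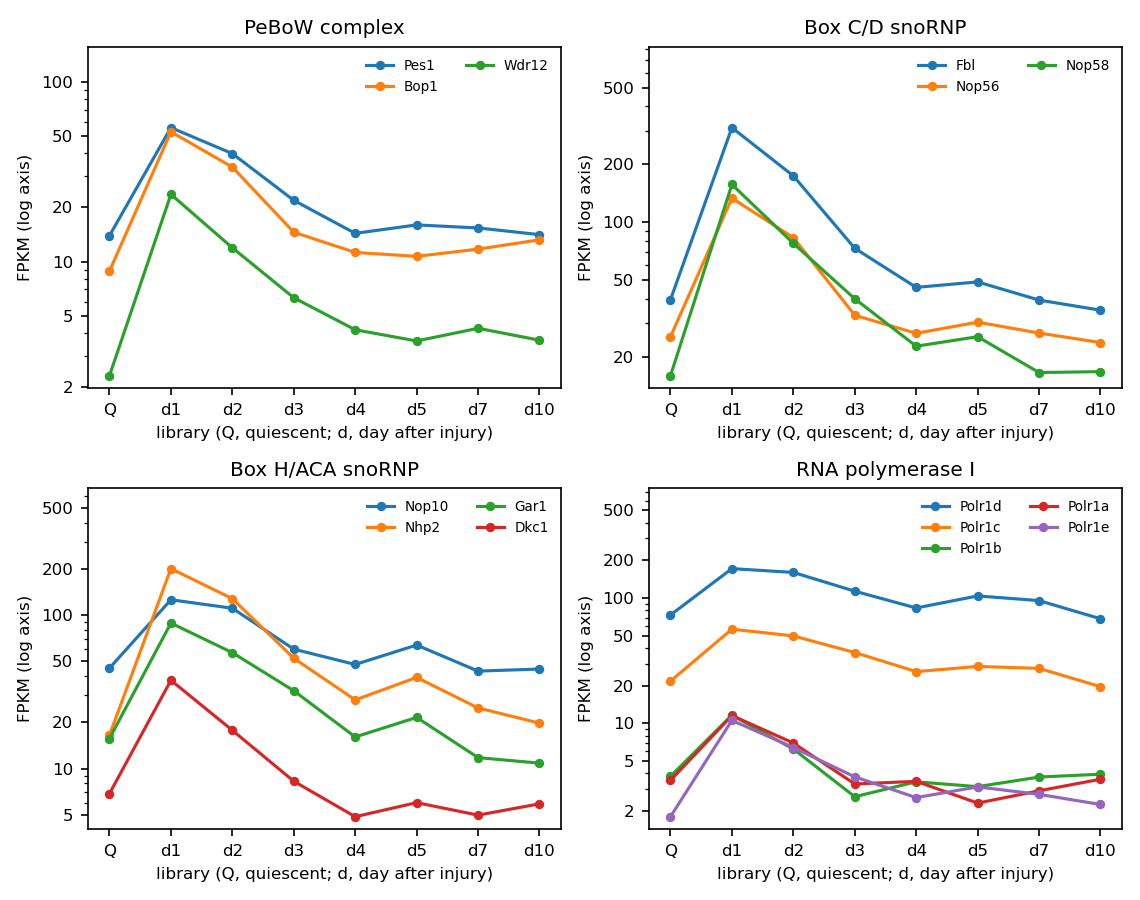
FPKM (log axis) of the members of the PeBoW complex, the box C/D particle, the box H/ACA particle and RNA polymerase I in the quiescent library (Q) and the 7 injured libraries (d1 to d10), 1 point per library. All lines have their highest point on day 1; Nhp2 (202 FPKM on day 1) crosses above Nop10 (126), and Wdr12 (2.32 to 23.7) closes on Pes1 (13.9 to 55.6).

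The factors of large subunit assembly were higher on day 1 in 7 of 8 cases, with a median of 2.16, and Rrp1b lost its call under the common sum. The PeBoW complex, needed to process the precursor of the large subunit RNAs, consists of Pes1, Bop1 and Wdr12. Pes1 was 13.9 FPKM in quiescent, 55.6 on day 1, 39.9 on day 2, 21.9 on day 3, 14.4 on day 4, 16.0 on day 5, 15.4 on day 7 and 14.1 on day 10. Bop1 was 8.86, 52.7, 33.5, 14.6, 11.3, 10.7, 11.7 and 13.2 FPKM. Wdr12 (chromosome 1, 60076868 to 60098500) was 2.32, 23.7, 11.9, 6.30, 4.18, 3.62, 4.26 and 3.66 FPKM. The least abundant of the complex thus differed most, 10.2-fold on day 1 for Wdr12 against 5.95-fold for Bop1 and 3.99-fold for Pes1, and the ratio of Pes1 to Wdr12 was 6.00 in quiescent, 2.35 on day 1 and 3.34 to 4.42 in the later libraries. Wdr12 was lowest in the quiescent library and had not come back to that level on day 10. The Bop1 row contains the row of the tendon factor Scx, which covers 8.37% of it and was 3.72 FPKM in quiescent and 95.4 on day 10, and its part in the day 10 value of Bop1 was not tested.

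The other assembly factors of the large subunit differed widely among themselves. Nop16 was 7.72 FPKM in quiescent, 64.0 on day 1, 41.9 on day 2, 17.8 on day 3 and 8.94 on day 10. Rrs1, which helps to load the 5S particle, was 11.9, 55.6, 24.3 and 9.33 from quiescent to day 3 and stayed between 9.33 and 11.7 afterwards. Rrp15 was 15.1 FPKM in quiescent and 72.2 on day 1. Rrp1, by contrast, was 48.8 FPKM in quiescent, 77.2 on day 1, 76.3 on day 2 and 44.5 to 54.8 later, and its day 1 difference of 0.65 was the smallest of the 51 genes that could be called. It had the highest mean level of the group.

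The small subunit processome, the largest group with 18 members, was higher on day 1 in 14 of the 16 that could be tested, with a median over all 18 of 1.45. Nol7, Rrp7a, Utp3 and Utp6 lost their calls under the median ratio, and these and Utp15 under the common sum. Rrp9, a protein of the U3 particle, was 10.5 FPKM in quiescent, 59.0 on day 1, 23.8 on day 2, 7.81 on day 3, 7.51 on day 4, 5.85 on day 5, 8.87 on day 7 and 8.30 on day 10. Utp18 was 6.12 in quiescent, 31.1 on day 1, 16.0 on day 2, 10.2 on day 3 and 6.99 on day 10. Both were highest on day 1, but Rrp9 was under its quiescent level from day 3 on and Utp18 came back to about its own. The day 5 difference of Rrp9, -0.75 in log2(FPKM + 1), was the lowest of any of the 54 genes at any time and passed the 2-fold limit under the common sum. Utp11l and Rrp7a were the most abundant by mean level, at 20.2 and 22.2 FPKM in quiescent and 68.1 and 55.8 on day 1.

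Not all of the processome was called higher. Rrp36 was 11.1 FPKM in quiescent and 18.7 on day 1, a difference of 0.70, and Nol6 was 7.25 and 13.9, a difference of 0.85. Nol6 was the gene just outside the 2-fold limit and Utp6 (10.5 and 22.8 FPKM, 1.04) the one just inside. Utp3 was the only one of the 51 genes not highest on day 1, at 34.2 FPKM there and 34.7 on day 2, a gap that closed in favour of day 1 under the other scalings. Utp23 stayed between 2.24 and 4.37 FPKM in all 8 libraries. Utp14b, an intronless copy of Utp14a, was between 0.64 and 1.11 FPKM throughout, while Utp14a was 5.09 in quiescent and 17.8 on day 1; the Utp14b row lies wholly within the Acsl3 row and shares sequence with Utp14a, so its values are uncertain.

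The late steps of small subunit maturation were higher on day 1 in 4 of 4 genes, with a median of 1.69. Bysl lost its call under the median ratio, and Bysl and Nob1 under the common sum. Rrp12, needed for export of both subunits, was 2.07 FPKM in quiescent, 16.1 on day 1, 6.12 on day 2, 1.89 on day 3 and 1.31 to 2.03 afterwards. Day 1 exceeded day 2 by 2.62 times in Rrp12, the largest such ratio of the 51 genes. Ltv1, an export factor, was 9.68 FPKM in quiescent, 37.9 on day 1, 23.0 on day 2 and 11.8 to 17.4 from day 3 on, above quiescent in every injured library. Nob1, the endonuclease that forms the end of the 18S RNA, was 12.8 and 38.2 in quiescent and on day 1, and Bysl (bystin) was 10.1 and 23.7.

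The enzymes of ribosomal RNA processing and modification were higher in 4 of 4, with a median of 1.58. Nol12 lost its call under the median ratio and under the common sum. Nop2, which methylates a cytosine of the 28S RNA, was 8.67 FPKM in quiescent, 42.7 on day 1, 22.6 on day 2, 9.19 on day 3 and 7.96 to 8.39 afterwards. Rrp8, another methyltransferase, was 5.01 in quiescent, 17.2 on day 1 and 6.85 on day 10. Nol12 was 9.88 in quiescent, 21.6 on day 1, 21.2 on day 2 and 16.3 on day 3, and Nol9, a polynucleotide kinase, was 4.46 and 15.1 in quiescent and on day 1. Nop2 was back at its quiescent level by day 3, and Nol12 was not.

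The nucleolar chaperones and regulators were higher in 7 of 7, with a median of 2.26, and Nol8 lost its call under the common sum. Npm1, the chaperone nucleophosmin (chromosome 11, 33152498 to 33163206), was the most abundant of the genes in every library, at 154 FPKM in quiescent, 1183 on day 1, 783 on day 2, 482 on day 3, 242 on day 4, 266 on day 5, 189 on day 7 and 162 on day 10. Ncl, nucleolin (chromosome 1, 86344719 to 86359455), was 25.2, 237, 139, 56.9, 32.3, 36.0, 29.8 and 27.6 FPKM in the same order, and 9.42-fold higher on day 1 than in quiescent. Both were lowest in quiescent as deposited, by little against day 10. Gnl3, the nucleolar GTPase nucleostemin, was 12.5 FPKM in quiescent, 86.0 on day 1, 48.7 on day 2 and 25.7 on day 3. Nolc1, the Nopp140 chaperone of small nucleolar particles, was 12.6 and 53.9 in quiescent and on day 1, Mybbp1a 17.2 and 86.1, Tcof1 (treacle, which works with polymerase I) 7.62 and 27.2, and Nol8 1.69 and 5.69. Ncl also holds Snora75 and Snord82, and Gnl3 holds Snord19 and Snord69.

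**Figure D3:**
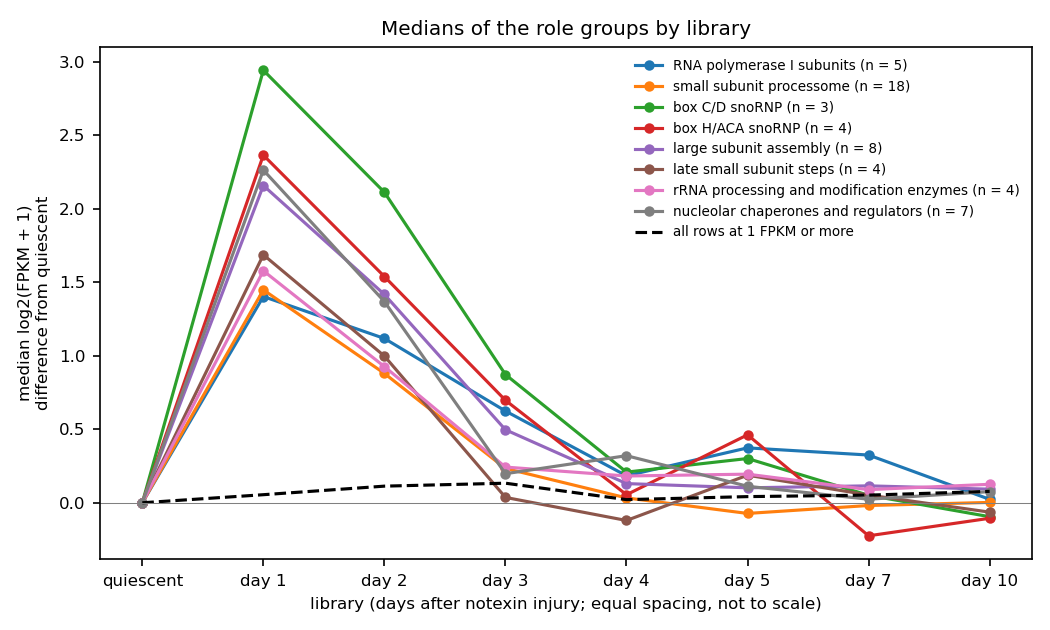
Median difference from the quiescent library in log2(FPKM + 1) for each of the 8 role groups (coloured lines, number of genes in the key) and for all rows at 1 FPKM or more (dashed line), by library. On day 1 the groups lie between 1.40 and 2.94 and all rows at 0.05. On day 10 the groups lie between -0.11 and 0.13. The day 10 sign changed with the scaling for the polymerase I subunits and the small subunit processome, and for no other group.

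Nol3 and Nol4, which the naming rule took for their symbols, did not share the pattern. Nol3 was 1.47 FPKM in quiescent, 1.51 on day 1, 2.58 on day 2, 3.59 on day 3, 2.34 on day 4, 2.95 on day 5, 2.16 on day 7 and 1.63 on day 10, highest on day 3. Its row overlaps that of 4931428F04Rik over 27.9% of its span. Nol4 was at the floor of 0.001 FPKM in 6 libraries, and 0.016 on day 7 and 0.010 on day 10.

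Day 1 was the peak. Of the 51 genes that reached 5 FPKM in any library, 50 were highest on day 1, or 98.0%, against 27.0% of all 9509 such rows. By day 2, 32 of 49 genes were still higher than quiescent, or 65.3%, against 23.7% of all rows, and none was lower, against 10.9%. Nol9, Nol10, Nop9, Polr1a, Polr1b, Polr1e, Rrp12, Rrp1b, Utp15 and Wdr12 passed the 5 FPKM limit through day 2 alone. They could only have been called higher, as Nop9, Polr1e, Rrp12 and Wdr12 were. The count on day 2 depended on the scaling, at 16 of 48 under the median ratio (14.1% of all rows) and 11 of 46 under the common sum (9.55%). Named by call, 7 genes were lower on day 2 than on day 1 (Dkc1, Nol10, Nop58, Rrp12, Rrp9, Rrs1 and Utp20), or 13.7% of 51, and none higher, against 2.95% of all rows lower and 5.86% higher. Nol8 and Utp20 passed the 5 FPKM limit through day 1 alone in this comparison and could only have been called lower. Among the 48 genes called higher on day 1, the median gene kept 49.5% of its day 1 difference from quiescent in FPKM on day 2, with a range from 26.5% in Nop14 to 103% in Utp3. The median over the 1926 rows of 200 bp or more called higher on day 1 was 80.3%. Mki67, a marker of dividing cells, was 0.45 FPKM in quiescent, 1.89 on day 1, 26.1 on day 2 and 14.6 on day 3, so it was highest in the library after the one in which these genes peaked.

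The genes were lower again on day 3, and on day 4 by less. Between days 2 and 3, 17 of 49 genes were lower, or 34.7%, and none higher, against 3.87% of all rows lower and 4.19% higher. Nol10, Polr1a, Polr1b, Polr1e, Rrp12, Rrp1b and Utp15 passed the 5 FPKM limit through day 2 alone. They could only have been called lower, as Polr1b and Rrp12 were. On day 3 only Ncl, Nhp2, Nop16, Nop58, Npm1 and Wdr12 were called higher than quiescent, 6 of 42 or 14.3%, against 15.7% of all rows, and none was lower, against 8.26%. The share on day 3 was therefore no larger than in the table as a whole. Nol9, Nop9 and Wdr12 passed the 5 FPKM limit through day 3 alone and could only have been called higher, as Wdr12 was. The day 3 median was 0.31, against 0.13 for all rows, and turned to -0.08 under the common sum. Under the median ratio 3 of 42 genes were called higher on day 3 (10.6% of all rows), and under the common sum 2 of 42 (7.97%). From day 4 on, the members' medians were 0.08, 0.18, 0.04 and 0.02 on days 4, 5, 7 and 10, and each turned below 0 under the common sum. On day 4 no gene was called in either direction, against 4.56% of all rows higher and 2.16% lower. On day 5 Nhp2 alone was higher, against 8.42% higher and 4.61% lower. On day 7, against 4.01% and 2.45%, and on day 10, against 3.09% and 1.21%, none was called. From day 3 to day 4 the median difference was -0.26 and 9 of 54 genes were above 0, against -0.11 for all rows, and the summed level of the 51 genes was 1494 and 993 FPKM. This step moved with transcript length. For the 51 genes the median was -0.43 under 2000 bp and -0.16 for longer transcripts. Over all rows of 200 bp or more at 5 FPKM or more in any library, it was -0.36 and -0.07. The part of length was not tested. In each of the 4 steps from one library to the next after day 3, no gene was called in either direction. Of all rows, 3.44% were higher and 4.89% lower from day 3 to day 4, 1.53% and 0.723% from day 4 to day 5, 0.84% and 1.89% from day 5 to day 7, and 0.723% and 0.605% from day 7 to day 10.

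The genes varied in where they ended. The summed FPKM of the 51 genes was 834 in quiescent, 4093 on day 1, 2690 on day 2, 1494 on day 3, 993 on day 4, 1106 on day 5, 931 on day 7 and 839 on day 10. As deposited, the quiescent library held the lowest value for 20 of the 51, among them Npm1, Ncl, Nhp2, Nop58 and Wdr12. That is 39.2%, against 28.1% of all rows. Day 10 held it for 9, or 17.6% against 8.3%, among them Fbl, Nop56, Gar1, Polr1c and Polr1d. The median ratio and the common sum both raised quiescent values relative to every other library, and these counts were not repeated under them. On day 10 the differences from quiescent ran from -0.50 in log2(FPKM + 1) for Gar1 to 0.53 for Bop1, under the 2-fold limit in all cases. The day 5 library was slightly above day 4 for many of the shorter transcripts. Of the 18 genes whose longest coding transcript is under 2000 bp, 14 were above day 4 on day 5, with a median of 0.16, and of the 33 longer ones 16 were, with a median of -0.01. Over all rows of 200 bp or more the same split was 82.2% with a median of 0.25 and 40.6% with a median of -0.06, so transcript length moved with the day 5 values of the whole table.

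Other genes of ribosome assembly gave a similar course. A list of 135 factors outside the naming rule, of which 134 had a row, covered polymerase I partners, small and large subunit assembly, the RNA exosome and particle assembly. On day 1, 103 of the 130 that could be tested were higher and none lower, with a median of 1.41 over the 134. That is 79.2%, against 22.5% of all rows. Genes of the list under 5 FPKM in quiescent, such as Heatr1 (2.05 FPKM), Shq1 (1.12) and Ccdc86 (2.30), passed that limit through day 1 alone. They could only have been called higher, and how many they were was not counted. The number of the list called higher on day 1 was 77 under the median ratio and 62 under the common sum, against 14.2% and 10.6% of all rows. On day 2, 58 of 126 were higher (46.0%, against 23.7%), with a median of 0.93. Under these scalings 31 and 16 were higher, against 14.1% and 9.55% of all rows. On day 3, 8 of 117 were higher, or 6.8%, a smaller share than the 15.7% of all rows, with a median of 0.33. Under the scalings 5 and 1 were higher, against 10.6% and 7.97% of all rows. How many of the list could be tested under each scaling was not counted. On days 4, 5, 7 and 10 the counts were 1, 2, 1 and none, or 0.9%, 1.8%, 0.9% and 0%. The shares of all rows were 4.56%, 8.42%, 4.01% and 3.09%. As deposited, none of the list was called lower in any injured library. Of the 130 at 5 FPKM or more, 121 were highest on day 1. The largest day 1 differences were those of Mrto4, a large subunit factor (10.3 FPKM in quiescent and 88.7 on day 1), and Pno1, a partner of Nob1 (7.58 and 65.7), at 2.99 and 2.96. By mean level Polr2f, Nhp2l1 (a box C/D protein, 53.6 and 193), Polr2k and Emg1 (an 18S methyltransferase, 40.6 and 148) led the list. Sbds, which releases a late block on the large subunit, was 47.6 in quiescent and 48.1 on day 1, a difference of 0.02 that was -0.33 under the median ratio. By part of the list, the exosome and its cofactors had 13 of 16 higher on day 1, small subunit assembly 34 of 42, large subunit assembly 40 of 50 and particle assembly 7 of 9.

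**Figure D4:**
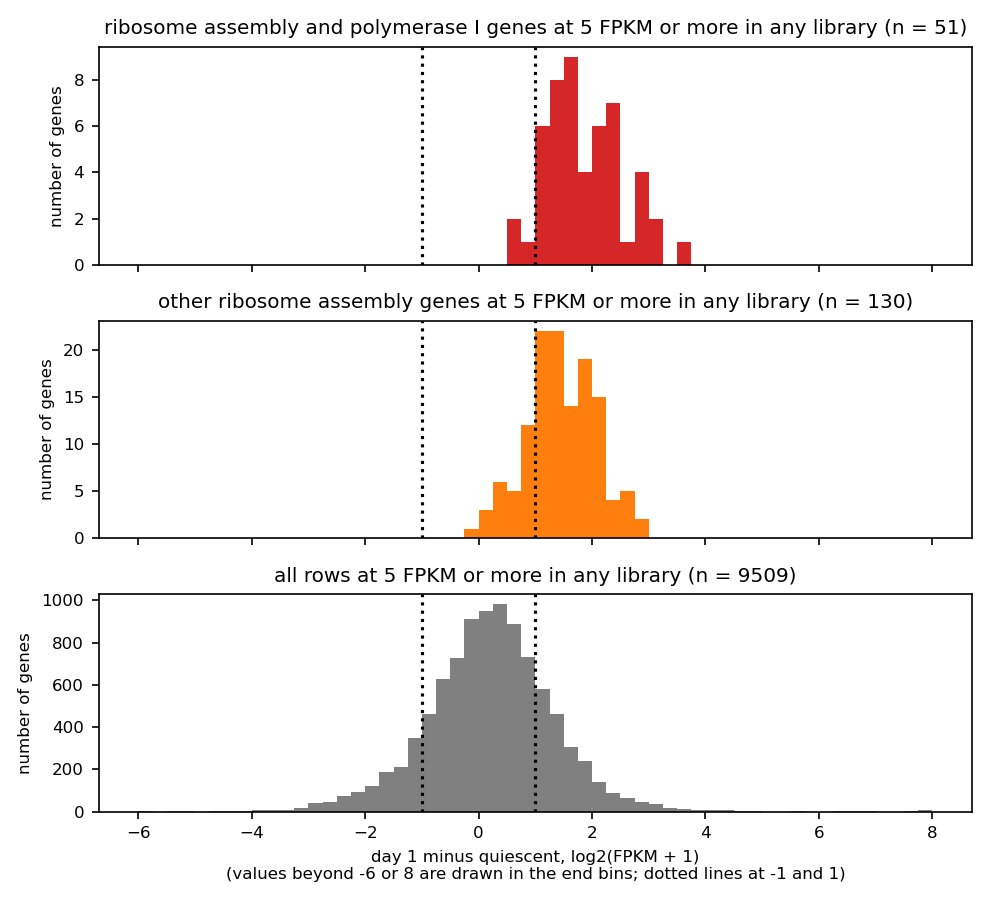
Histograms of the day 1 minus quiescent difference in log2(FPKM + 1) for the 51 genes (top), the 130 other ribosome assembly genes (middle) and all 9509 rows (bottom) at 5 FPKM or more in any library; dotted lines mark -1 and 1. The medians are 1.71, 1.42 and 0.22, and 94.1%, 79.2% and 21.5% of the 3 sets lie at 1 or more.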

How the data were processed

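Polyadenylated RNA of sorted tdTomato-positive progenitors was sequenced in 8 libraries, 1 per time point, grouped by the time given in each label. The authors deposited FPKM values per row, each with a symbol and a locus. The submitters' processing notes name Cufflinks, TopHat2, Bowtie2 and bcl2fastq and the build mm10. Their versions, the annotation, whether strand was used and how reads with several matches were counted stand as not given in the sources used here. Transcript models and the library's total enter every FPKM value, so a few abundant genes can move all others.

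Differences were taken on log2(FPKM + 1) of the deposited FPKM, which understates changes of low genes. A gene was called at a difference of 1 or more and 5 FPKM or more in the higher library, over all rows alike. With 1 library per group no test was possible, and no p is given. Depth was estimated from FPKM steps in 2088 single-transcript genes, where 75.2% to 80.4% of low values lay within 0.15 of a whole number of fragments (30% by chance). Counting errors rest on it and on the longest coding transcript of each gene. Other scalings, pseudocounts, minimums and the day 10 baseline were tried. The scripts were tested on simulated data and used Python 3.11.15, numpy 2.4.6, pandas 2.3.3 and matplotlib 3.10.9.

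Members, roles and lists were chosen with earlier results of these data known. Genes were named by rule: every polymerase I subunit, and in each role group those with the highest mean, the largest and the smallest day 1 difference, those lower in any library, those with another role, those at the 2-fold limit, and fixed or leading genes of the other assembly list. Further genes were named after their values were seen, to complete a particle or a call. Proteins are not shown here.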

Additional observations from a re-analysis of the deposited data

How the results depend on the processing

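On day 1, 48 genes were called higher as deposited, and 32 to 48 were under the alternatives tried, with none lower. Of 501 recomputed counts and medians, 451 stayed near the reported value and 50 moved further. Near meant within 1.5 times for a count, counts that stayed at 0 included. For a median it meant a shift of at most the log2 of 1.5, so a median near 0 could change sign and still count as near. No median of 1 or more changed sign, and no gene called on day 1 changed direction. Of the 55 genes, 8 lost their day 1 call under the median ratio, 14 under the common sum, 16 with rows of 200 bp or more alone, 2 with the day 10 baseline and 1 with a minimum of 10 FPKM. On day 2 the members called higher were 16 under the median ratio and 11 under the common sum (11 with rows of 200 bp or more alone), and on day 3 they were 3, 2 and 2. The member median on day 2 was 0.53 under either common sum. Under the common sum, and with rows of 200 bp or more alone, the day 2 medians of the role groups were 0.49 and 0.49 for polymerase I, 1.49 and 1.49 for box C/D, 0.93 and 0.93 for box H/ACA, 0.81 and 0.81 for large subunit assembly, 0.41 and 0.41 for late small subunit steps, and 0.77 and 0.76 for chaperones and regulators. On day 5 Nhp2 was lost (0 higher) under both common sums and with the day 10 baseline, and 1 gene, Rrp9, was lower under both common sums. No gene was highest on day 2 under the 3 other scalings (0 against 1).

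For the other ribosome assembly genes, the day 1 count was 62 under the common sum and 57 with rows of 200 bp or more alone. The day 2 count was 31 under the median ratio and 16 under either common sum. The day 3 count was 5 under the median ratio, 1 under either common sum and 4 with the day 10 baseline. On day 4 it was 2 with a pseudocount of 0.1 and 0 under the 3 scalings and the day 10 baseline, on day 5 it was 1 under the 3 scalings and 0 with the day 10 baseline, and on day 7 it was 0 under all 4. Some of the medians on day 3 and later that lay near 0 changed sign with the scaling, and the cause was not tested. Utp6, Nol7 and Nol12 cleared the day 1 limit by less than 1 counting error, so depth limits these 3 calls. Animals were not replicated, so no alternative speaks to the spread between mice. No paired analysis was possible because each group holds 1 library and no test was made.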
